A study of Mus musculus with 21 samples.

Results

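The nuclear factor I (NFI) family consists of 4 genes in the mouse, Nfia, Nfib, Nfic and Nfix, and was followed here across 6 mouse cell lines. Its members were taken as every probe of the Illumina MouseWG-6 V2 bead array in the scanner table that GEO's platform annotation assigns to 1 of these genes, which gave 21 of 45281 probes for 4 of 19057 annotated genes: 2 for Nfia, 11 for Nfib, 4 for Nfic and 4 for Nfix. Of these, 18 had a detection p under 0.01 on all arrays of 1 line or more and were tested (1 for Nfia, 10 for Nfib, 3 for Nfic and 4 for Nfix). Of the other 3, an Nfia and an Nfib probe were at background on all 21 arrays, and an Nfic probe was above background on 1 MEF array alone.

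Total RNA was hybridised from iNS2 (3 arrays), iNS3 (4), iNS5 (4), NS (3), ES (3) and MEF (4). The iNS lines are induced neural stem cell clones numbered 2, 3 and 5, each of them a single clone, and all 3 carry the Oct4-GFP (Oct4-GiP) reporter of the mouse embryonic fibroblasts they came from. NS are control neural stem cells from primary mouse forebrain cells, ES are control embryonic stem cells whose source label repeats the fibroblast source, and MEF are Oct4-GFP embryonic fibroblasts. The agents used for the conversion, the age of the animals and the number of animals are not given in the sources used here. The series asks whether fibroblasts can be converted directly into neural stem cells that keep expanding, and its text describes repeat arrays of 1 line as technical replicates. P-values between lines therefore measure only the spread between arrays, and only the comparisons that treat the 3 clones as replicates cover separately derived lines.

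Nuclear factor I proteins are site-specific transcription factors that bind DNA as dimers, at a pair of TTGGC elements facing each other, and that can activate or repress the genes they bind. In the developing mouse and chick nervous system, NFIA and NFIB are best known for their part in the onset of gliogenesis, when neural progenitors begin to make astrocytes. NFIX is known from neural stem cells and skeletal muscle, and NFIC from tooth root formation and other tissues of mesenchymal origin.

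The lines matched their labels by marker genes. Of 8 fibroblast markers, 0 were above background on any array of the clones or NS, against 7 on every MEF array, and their summed normalised intensity was 179.5 to 206.6 in the clones and NS against 83980 to 85560 in MEF. Of 8 neural stem cell markers with a probe of that symbol, 5 were above background on every array of iNS2, iNS3, iNS5 and NS, against 3 in ES and 1 in MEF. All 6 pluripotency markers were above background on every ES array, against 1 in each clone and 2 in NS. Their summed normalised intensity was 185.8 to 286.7 in the clones and NS, against 68020 to 69230 in ES. Repeat arrays correlated at no less than 0.991 across genes, which are not independent replicates. Each NFI probe value rested on 22 to 73 beads with a bead standard error of at most 6.71% of the signal.

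In GRCm38.p6 coordinates, Nfia spans chr4:97578066-98118876 and Nfib chr4:82290173-82506751, so both lie on chromosome 4. Nfic spans chr10:81396191-81431919 and Nfix chr8:84704712-84801238. RefSeq promoter windows of 300 bases (250 before to 50 after a listed transcript start) were matched for 3 of the 4 genes, Nfia, Nfic and Nfix. A window of each is printed because the results turn on the transcript levels of these genes, and because the family's own TTGGC element can be searched in them. The windows are chr4:97581693-97581992 on the plus strand for Nfia, chr10:81427124-81427423 on the minus strand for Nfic and chr8:84772826-84773125 on the minus strand for Nfix, 1 of its 4 listed starts. They read 5′ to 3′ on the gene's strand, with TTGGC elements (read GCCAA on the other strand) in capitals:
Nfia: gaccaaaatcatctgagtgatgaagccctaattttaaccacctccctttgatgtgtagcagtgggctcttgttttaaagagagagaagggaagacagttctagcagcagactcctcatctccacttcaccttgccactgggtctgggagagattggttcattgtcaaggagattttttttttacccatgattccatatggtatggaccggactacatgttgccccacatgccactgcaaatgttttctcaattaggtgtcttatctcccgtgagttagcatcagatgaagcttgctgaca
Nfic: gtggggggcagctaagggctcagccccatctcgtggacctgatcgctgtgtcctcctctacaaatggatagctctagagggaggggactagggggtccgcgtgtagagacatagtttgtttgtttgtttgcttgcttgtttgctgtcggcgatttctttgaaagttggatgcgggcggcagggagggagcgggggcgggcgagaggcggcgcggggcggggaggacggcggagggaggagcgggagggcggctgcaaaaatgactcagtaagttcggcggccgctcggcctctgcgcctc
Nfix: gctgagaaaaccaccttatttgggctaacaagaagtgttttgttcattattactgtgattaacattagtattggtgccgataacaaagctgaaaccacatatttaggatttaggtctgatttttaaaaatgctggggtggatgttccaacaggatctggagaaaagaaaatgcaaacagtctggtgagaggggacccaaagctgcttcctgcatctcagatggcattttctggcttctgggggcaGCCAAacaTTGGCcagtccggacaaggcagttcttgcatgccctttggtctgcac

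Neither the Nfia nor the Nfic window held the TTGGC element. The printed Nfix window held 2, starting 5 bases before and at base 4 of the transcript, and the other Nfix windows held 1, 1 and 0. For scale, 46.7% of the 32851 promoter windows of the same length held the TTGGC element at least once. A pair of TTGGC elements facing each other with 5 bases between them was present in 0 of these NFI windows and in 0.04% of all windows. All these NFI windows lie inside the gene spans given above, so none covers the outermost start of its gene. A match is a run of letters and not a measured binding site, and the arrays do not show which start was used.

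Levels are given as normalised log2 intensity, on which 1 unit is a 2-fold change, for the probe of each gene with the highest mean over all arrays. Levels of different probes cannot be set against each other. Nfia, which encodes the family member most closely tied to the start of gliogenesis, was high in the 3 clones and in NS, and low or at background in ES and MEF. The Nfia probe read 9.75, 9.79 and 9.90 on the iNS2 arrays, 9.79, 9.79, 9.78 and 10.24 on the iNS3 arrays, and 9.27, 9.39, 9.50 and 9.33 on the iNS5 arrays. The NS arrays read 9.71, 9.65 and 9.66. The ES arrays read 4.36, 4.67 and 4.58, and the MEF arrays 5.39, 5.87, 5.84 and 5.79. The clone and NS arrays were all higher than every ES and MEF array, with no overlap. None of the ES arrays and 3 of the 4 MEF arrays were well above background.

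In log2 terms, Nfia was 3.97 ± 0.28 (SE, n = 3 clones) higher in the clones than in MEF (limma eBayes, adjusted p = 0.0017), which is at least 15-fold because 1 MEF array was at background. Each line taken alone passed the stricter limma test against a 2-fold change (treat): the log2 difference from MEF was 4.09 ± 0.12 in iNS2, 4.18 ± 0.11 in iNS3, 3.65 ± 0.11 in iNS5 and 3.95 ± 0.12 in NS (SE). In bulk RNA, fewer cells that express a gene and less RNA per cell cannot be told apart. Against ES, the clones had at least 19.4-fold more Nfia signal (log2 difference 5.16 ± 0.28, eBayes adjusted p = 0.0011) and NS at least 19.2-fold more (5.14 ± 0.13, treat adjusted p = 2e-16). A difference of more than 2-fold between ES and MEF was not called (log2 difference -1.19 ± 0.12, treat adjusted p = 0.15). All ES arrays were at background, so Nfia was at least 1.24-fold lower in ES and the full size of the difference was not measured. The missing call rests on MEF replicate 1, the lowest MEF array: without it the log2 difference was -1.30, with a treat adjusted p of 0.017.

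Within the group of neural lines, the mean Nfia level ordered iNS3 (9.90 ± 0.22, SD, n = 4 arrays), iNS2 (9.81 ± 0.08, n = 3), NS (9.67 ± 0.03, n = 3) and iNS5 (9.37 ± 0.10, n = 4), followed by MEF (5.72 ± 0.22, n = 4) and ES (4.54 ± 0.16, n = 3). The iNS3 and iNS2 arrays overlapped, while the NS arrays lay below every iNS2 array and above every iNS5 array. None of the steps among the clones and NS passed the 2-fold test. The clones as a group differed from NS by 0.02 (95% interval -0.74 to 0.79).

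Nfib, which encodes another factor of the gliogenic programme and of cortical and lung development, was high in MEF already, higher still in the clones and NS, and lowest in ES. Its brightest probe read 12.05, 11.96 and 11.88 on the iNS2 arrays, 11.77, 11.83, 11.86 and 12.21 on the iNS3 arrays, and 12.09, 12.15, 12.07 and 12.04 on the iNS5 arrays. The NS arrays read 12.31, 12.36 and 12.17. The ES arrays read 7.68, 7.78 and 7.83, and the MEF arrays 10.33, 10.38, 10.56 and 10.66. Every clone and NS array was above every MEF array, and every MEF array was above every ES array.

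The Nfib difference of the clones from MEF on this probe was 1.51 ± 0.18 log2 units (SE, n = 3 clones; eBayes adjusted p = 0.006), or 2.85-fold. That of NS from MEF was 1.80 ± 0.10 (treat adjusted p = 3.6e-07), or 3.48-fold. Within slide 4, which alone held MEF together with NS, iNS3 and iNS5 arrays, the differences from its 1 MEF array were 1.62 for the 3 NS arrays (treat adjusted p = 0.0094), 1.55 for the 1 iNS3 array (adjusted p = 0.034) and 1.43 for the 1 iNS5 array (adjusted p = 0.067). All spread in that fit comes from the 3 NS arrays, with each single array assumed to vary like them, so the clone values there are given for their direction and size. Without clone iNS2 the clones' difference was 1.52 and no longer passed (eBayes adjusted p = 0.05). Nfib was 6.6-fold lower in ES than in MEF (log2 difference -2.72 ± 0.10, treat adjusted p = 1.9e-12). The order of the line means was NS (12.28 ± 0.10), iNS5 (12.09 ± 0.04), iNS2 (11.97 ± 0.09), iNS3 (11.92 ± 0.20), MEF (10.48 ± 0.15) and ES (7.76 ± 0.08, SD over arrays). The NS arrays lay above every iNS5 array, the clones overlapped one another, and no step among these 4 lines passed the 2-fold test.

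Nfic, whose loss in mice is known for short tooth roots, ran the other way and was highest in MEF. Its brightest probe read 7.38, 7.12 and 7.07 on the iNS2 arrays, 7.38, 7.20, 7.50 and 7.39 on the iNS3 arrays, and 7.32, 7.36, 7.28 and 7.13 on the iNS5 arrays. The NS arrays read 7.45, 7.60 and 7.29. The ES arrays read 6.56, 6.86 and 6.94, and the MEF arrays 9.08, 9.05, 8.83 and 8.81. All MEF arrays were above all others, the clone and NS arrays overlapped, and the ES arrays lay below every clone and NS array.

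Nfic was 3.17-fold lower in the clones than in MEF (log2 difference -1.67 ± 0.18, SE, n = 3 clones; eBayes adjusted p = 0.0048) and 2.82-fold lower in NS (-1.496 ± 0.11, treat adjusted p = 0.00043). Within slide 4, the differences from the 1 MEF array were -1.37 for the 3 NS arrays (treat adjusted p = 0.1), -1.43 for the 1 iNS3 array and -1.49 for the 1 iNS5 array, all lower than MEF, with the spread again taken from the NS arrays alone (adjusted p = 0.12 and 0.075 for the single clone arrays). These 2 arrays together differed by -1.46 (eBayes adjusted p = 0.051), with the spread taken from the pair. With slide as a block in the fit of all arrays, these 3 lines kept their direction and did not pass (treat adjusted p = 0.082 in NS, 0.11 in iNS3 and 0.055 in iNS5). With quantile normalisation alone and no background correction, NS at -1.05 and iNS3 at -1.10 did not pass either (treat adjusted p = 0.96 and 0.24). Nfic was 4.45-fold lower in ES than in MEF (log2 difference -2.15 ± 0.11, treat adjusted p = 6.3e-09). The line means ordered MEF (8.94 ± 0.14), NS (7.44 ± 0.16), iNS3 (7.37 ± 0.12), iNS5 (7.27 ± 0.10), iNS2 (7.19 ± 0.16) and ES (6.79 ± 0.20, SD over arrays). The difference of the clones from ES did not pass (log2 difference 0.49, 95% interval -0.01 to 0.99, eBayes adjusted p = 0.11).

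Nfix is known for its part in the maintenance of neural stem cells and in brain growth in mice. On its brightest probe it was at a like level in the clones, NS and MEF and was low in ES. Its brightest probe read 11.11, 10.90 and 11.18 on the iNS2 arrays, 11.33, 11.19, 11.16 and 11.23 on the iNS3 arrays, and 11.07, 10.96, 10.98 and 11.02 on the iNS5 arrays. The NS arrays read 10.85, 10.76 and 10.95. The ES arrays read 5.98, 5.70 and 5.71, and the MEF arrays 11.11, 11.15, 11.26 and 10.84. The MEF arrays overlapped those of every clone and of NS, and the ES arrays were far below all others.

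Nfix differed between the clones and MEF by 0.01 ± 0.19 log2 units (SE, n = 3 clones; eBayes adjusted p = 0.97), with a 95% interval of -0.51 to 0.53. ES was 39.2-fold lower than MEF (log2 difference -5.29 ± 0.10, treat adjusted p = 6.6e-19), and the clones were 39.5-fold higher than ES (5.30 ± 0.19, eBayes adjusted p = 0.00076). The line means ordered iNS3 (11.23 ± 0.08), MEF (11.09 ± 0.18), iNS2 (11.06 ± 0.15), iNS5 (11.01 ± 0.05), NS (10.85 ± 0.09) and ES (5.80 ± 0.16, SD over arrays). From iNS3 to iNS5 each line overlapped the next, and the NS arrays lay just below every iNS5 array. The plot of levels by array shows the 4 patterns side by side.

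**Figure D1:**
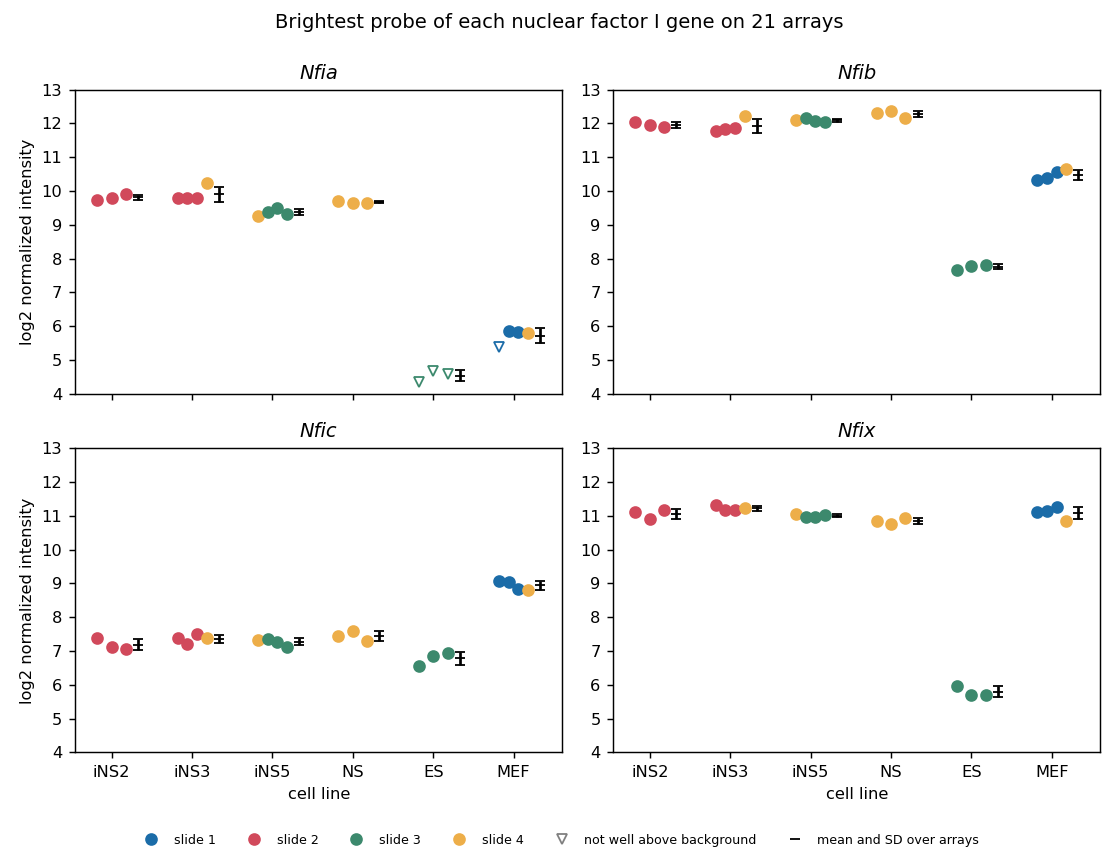
Normalised log2 intensity of the brightest probe of each NFI gene (vertical axis) on each of the 21 arrays, by cell line (horizontal axis) and coloured by slide, with open triangles for arrays not well above background and bars for the mean and SD. Nfia is above 9 in the clones and NS and below 6 in ES and MEF, Nfib steps down through MEF to ES, Nfic is highest in MEF, and Nfix is low in ES.

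Counted over the 18 tested probes, the genes of the family differed from MEF in different directions in the neural lines: every higher call was for Nfia or Nfib, every lower call for Nfic, and 0 of the 4 Nfix probes were called in iNS2, iNS3, iNS5 or NS. In iNS2, 10 probes were higher and 2 lower, where 17.3% and 17.1% of all 15972 tested probes were called higher and lower (limma treat). In iNS3, 7 were higher and 1 lower, against 16.6% and 16.5% of all tested probes. In iNS5, 4 were higher and 1 lower, against 18.5% and 17.8%, so the higher calls were near the share of all probes there. In NS, 8 were higher and 3 lower, against 16.4% and 15.8%. The lower calls were near or below the share of all probes in each of these 4 lines. With slide as a block, the calls fell to 5 in iNS2 (4 higher and 1 lower), 3 in iNS5 (all higher) and 7 in NS (6 higher and 1 lower), and iNS2 shared no slide with MEF. With quantile normalisation and no background correction they were 5 in iNS2 and 3 in NS. The shares of all probes called under these settings are not given here, so the falls are not a result about the NFI probes alone. Probes of 1 gene share a target and are not independent, and 10 of the 18 read Nfib. The Nfia probe and the Nfib probes ILMN_2566674, ILMN_2587277 and ILMN_1227325 passed the detection filter only through clones or NS, which favours higher calls there. All these comparisons share the MEF arrays.

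With the 3 clones as replicates, 7 probes were higher than in MEF (the Nfia probe and 6 Nfib probes) and 3 were lower (all 3 tested Nfic probes), where 22.3% and 20.9% of all tested probes were called (eBayes). The median log2 difference over the 18 probes was 1.18, beside 0.14 over all tested probes. Without clone iNS2, 4 probes were called, 3 of them higher and 1 lower, and leaving out 1 clone at a time gave 4 to 14. A fit with fewer clones is also weaker, and its share of all probes called is not given here. Whether the drop is particular to iNS2 was not tested. Within slide 4, with 1 array each of iNS3, iNS5 and MEF, the count was 3, all higher. In ES, 11 of 18 probes were lower than in MEF and 0 higher, against 21.2% of all tested probes called lower (treat), with 5 for Nfib, 3 for Nfic and 3 for Nfix.

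Against ES, probes of Nfia, Nfib and Nfix were higher in each neural line and 0 of the 3 Nfic probes were called in any single line. The higher calls came to 13 probes in iNS2 (15.2% of all tested probes), 13 in iNS3 (16.2%), 10 in iNS5 (16.3%) and 12 in NS (15.5%), and 0 probes were lower in any of them (treat). The clones as a group had 11 higher probes (eBayes, 19.2% of all tested probes). These were the Nfia probe, 6 Nfib probes, 3 Nfix probes and 1 Nfic probe (ILMN_2710678), whose fold was at least 1.21 because it was at background in ES. The Nfix probes ILMN_2626432 and ILMN_2606700 were at background on all ES arrays. In the clones ILMN_2626432 exceeded ES at least 9.76-fold (log2 difference 3.93 ± 0.26, eBayes adjusted p = 0.0017).

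Between the neural lines few differences were called. The clones as a group and NS differed at 0 of the 18 probes (eBayes, 0.0563% of all tested probes), 2 of which had an unadjusted p under 0.05. With 2 residual degrees of freedom, that fit called 9 of all 15972 probes, so its 0 calls here do not show likeness. Each clone alone differed from NS at 0 probes, where 1.9% of all probes were called for iNS2, 1.96% for iNS3 and 2.79% for iNS5 (treat). None of these had an unadjusted p under 0.05 against a 2-fold change, and 4, 9 and 11 of the 18 passed an adjusted test against no change. The share of all probes passing that test is not given here, so these counts cannot be set against the treat shares. Between clones, iNS2 and iNS3 differed at 0 probes (0.939% of all) and iNS2 and iNS5 at 0 (1.61% of all). In both pairs 0 probes had an unadjusted p under 0.05 in treat, and 5 and 7 passed against no change, again without a share of all probes. A single probe of the 18 was called between iNS3 and iNS5, the Nfib probe ILMN_2573881, which was higher in iNS3. Of all probes, 4.3% were called in either direction and 1.47% higher, so 1 call here is near the share of all probes.

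**Figure D2:**
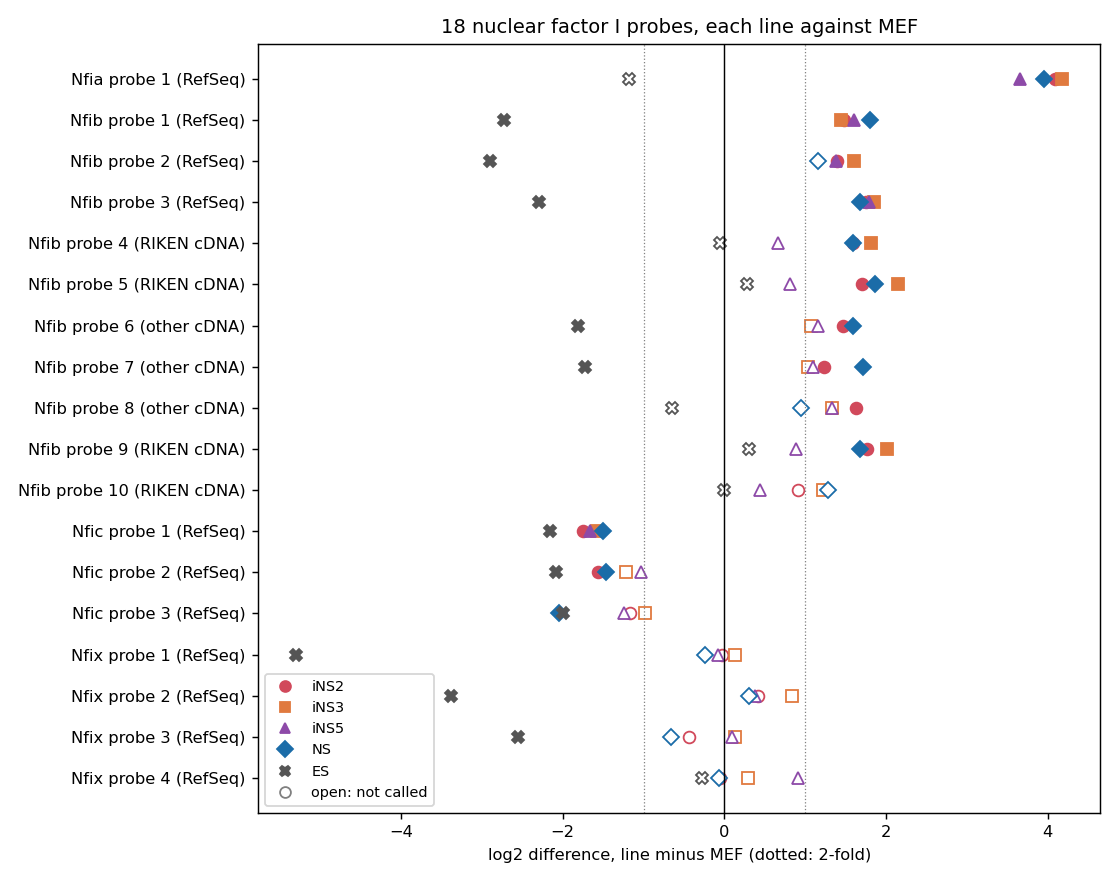
Log2 difference of each line minus MEF (horizontal axis) for the 18 tested NFI probes (rows, numbered within each gene by mean signal and marked with the kind of sequence they are annotated to), with filled symbols for differences called by limma treat against a 2-fold change. Nfia lies near 4 in the clones and NS, the Nfic probes lie below 0 in every line, and 0 of the 4 Nfix probes are called in the clones or NS, where they lie between -0.66 and 0.91, while 3 are called lower in ES.

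The probes of a gene did not all differ alike between the lines. On the Nfix probe ILMN_2626432 each clone lay above MEF with no overlap (log2 difference 0.42 in iNS2, 0.84 in iNS3 and 0.38 in iNS5). On ILMN_2606700, NS (-0.66) and iNS2 (-0.43) lay below MEF with no overlap, while iNS3 and iNS5 overlapped MEF. None of these differences passed the 2-fold test. For Nfix, the 3 brighter probes fell in ES, 1 by 39.2-fold relative to MEF and the other 2, at background in ES, by at least 6.68-fold and 3.53-fold, while ILMN_3078175 was above background on every array only in iNS5. For Nfic, all 3 tested probes were lower in NS than in MEF (2.82-fold, 2.76-fold and, for a probe at background in NS, at least 2.63-fold), and 1 to 2 of 3 passed in each single clone. For Nfib, all 10 tested probes had positive fitted differences from MEF in each clone and in NS, and 9, 6, 3 and 7 passed in iNS2, iNS3, iNS5 and NS. The probes ILMN_2566674, ILMN_2587277 and ILMN_1227325 passed the detection filter only through clones or NS. That filter favours a positive difference from MEF, so these probes add no separate evidence of direction.

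The tested Nfib probes differed by the kind of sequence they are annotated to, a grouping chosen after the values were seen and given as a description. Of the 10, 3 are annotated to RefSeq transcripts, 3 to other cDNAs and 4 to RIKEN cDNAs (RIKEN is the institute whose mouse full-length cDNA collection supplied them). In ES against MEF, the 2 RIKEN probes above background on all arrays of both lines differed by -0.05 (ILMN_1256427) and 0.28 log2 units (ILMN_2573881), and neither was called. The other 2 RIKEN probes (ILMN_2566674 and ILMN_2587277) were near background in both ES and MEF, so that a fall in ES could not have been measured with them. Of the other 6 Nfib probes, 3 were measured at -2.90 to -2.29, 2 at background in ES were at least 1.93-fold and 1.9-fold lower, and 1 gave no bound. In iNS5 against MEF, the same 2 measured RIKEN probes differed by 0.66 and 0.81 with neither called, and the others by 1.10 to 1.79 with 3 higher. In iNS5 against NS, 3 RIKEN probes were measured at -1.06 to -0.80 and the dimmest was at least 1.58-fold lower, while the others lay between -0.61 and 0.38, with 0 called in either set.

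The single probe called between clones, ILMN_2573881, belongs to the RIKEN set. It read 8.27, 8.29, 8.44 and 8.19 on the iNS3 arrays, against 6.89, 7.11, 6.97 and 6.84 on the iNS5 arrays. The 2 clones did not overlap, and the difference was 1.34 ± 0.09 log2 units (SE; limma treat adjusted p = 0.011). In iNS3 against iNS5, 3 RIKEN probes were measured at 1.13 to 1.34 and the dimmest was at least 1.52-fold higher, and the other 6 Nfib probes differed by -0.17 to 0.22. The call was lost without iNS3 replicate 3 or iNS5 replicate 4, and with slide as a fixed block. Within slide 4, which held 1 array of each clone (8.19 in iNS3 and 6.89 in iNS5), it was lost too. The call was also lost with median scaling, with an offset of 50 and with quantile normalisation without background correction. Which Nfib transcripts each probe can read was not tested, since probe sequences were not used here.

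**Figure D3:**
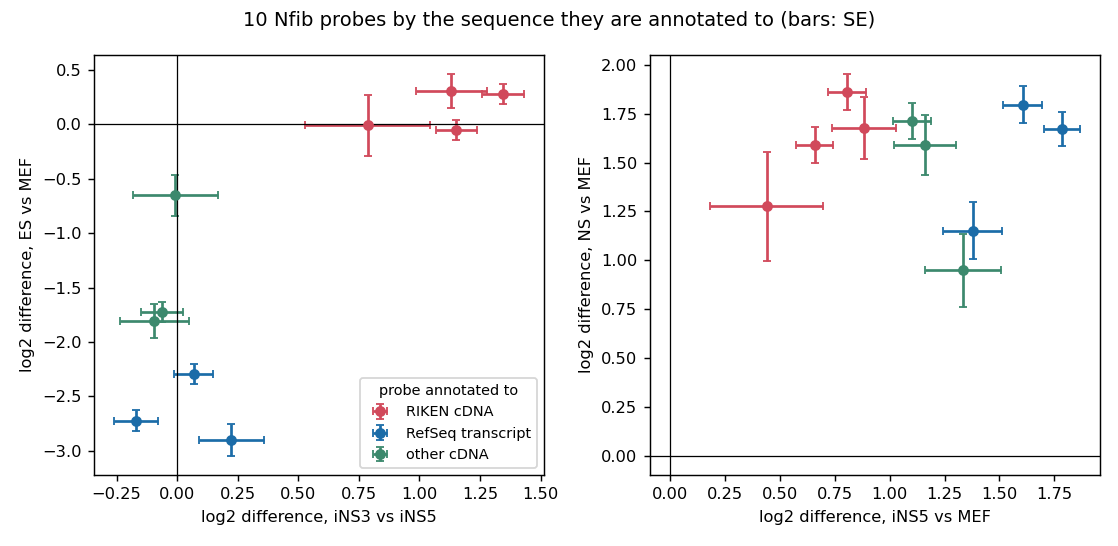
Log2 differences of the 10 tested Nfib probes, with standard errors, coloured by the kind of sequence they are annotated to. Left, ES against MEF (vertical) plotted over iNS3 against iNS5 (horizontal), where the 4 RIKEN cDNA probes lie near 0 on the vertical axis, 2 of them at or near background in both ES and MEF, and between 0.79 and 1.34 on the horizontal axis. Right, NS against MEF (vertical) plotted over iNS5 against MEF (horizontal).

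Other genes of neural progenitors, glia and mesenchyme, from 4 lists, were set beside the family in the comparison of the clones with MEF. Of 15 transcription factors and Notch, BMP and STAT pathway genes that start or accompany gliogenesis, 11 had a tested probe, and 8 were higher and 0 lower in the clones than in MEF (eBayes). Over all 10449 genes, 23% were higher and 22.6% lower. The list's median log2 difference was 2.36, beside 0.07 over all genes. Sox9, the factor that induces Nfia in the embryonic spinal cord of mouse and chick, was 4.92-fold higher (log2 difference 2.30 ± 0.34, adjusted p = 0.01). Notch1, a receptor that keeps neural progenitors undifferentiated and readies them for gliogenesis, was 13.4-fold higher (3.74 ± 0.28, adjusted p = 0.002). Zbtb20, a factor of astrocyte development, was 5.15-fold higher (2.36 ± 0.28, adjusted p = 0.0054). The Notch target Hes5 was at least 9.59-fold higher. Stat3, Id3 and Hes1 did not pass, with log2 differences of 0.20, -0.19 and -0.87.

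Of 20 astroglial and radial glial genes, some of them reported NFI targets in mouse or chick, 17 were tested, and 7 were higher and 1 lower in the clones than in MEF, with a median of 2.11. The higher ones included Slc1a3, the glutamate transporter of radial glia and astrocytes (33.5-fold, log2 difference 5.07 ± 0.18, eBayes adjusted p = 0.0006), and Fabp7, a lipid-binding protein of radial glia (at least 6.53-fold, 3.82 ± 0.42, adjusted p = 0.0046). Aldoc, an astrocyte aldolase, was 85.6-fold higher (6.42 ± 0.43, adjusted p = 0.0015). Gfap, the intermediate filament of mature astrocytes, passed the detection limit on 4 of 11 clone arrays and on 0 of 4 MEF arrays, and did not pass (0.97 ± 0.58, adjusted p = 0.24). Apcdd1 and Mmd2, reported as targets of NFIA with SOX9 in chick spinal cord, did not pass either (-2.11 ± 0.61 and 4.25 ± 2.10, adjusted p = 0.054 and 0.17). Apcdd1 was 4.32-fold lower. Mmd2 was at least 9.12-fold higher with a wide spread between the clones, above background on 11 of 11 clone arrays and 0 of 4 MEF arrays. Id4, an inhibitor of basic helix-loop-helix factors, was the lower gene, at background on all clone arrays and at least 7.73-fold lower.

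Of 8 progenitor and chromatin genes, some reported as repressed by NFI factors in mouse brain, 7 were tested, and 5 were higher and 1 lower in the clones than in MEF, with a median of 2.67. Ezh2, the methyltransferase of the polycomb complex, was 18.9-fold higher (log2 difference 4.24 ± 0.39, eBayes adjusted p = 0.003), Nes, the intermediate filament of neural progenitors, 12.5-fold and Uhrf1, a partner of the maintenance DNA methyltransferase, 10.8-fold. Bbx, a high mobility group box factor, was 2.95-fold lower (-1.56 ± 0.23, adjusted p = 0.0096). Sox9, Hes1 and Ezh2 also stand in the first list. Of 12 mesenchyme, matrix and tooth genes, 9 were tested, 6 were lower and 1 higher, with a median of -4.29. Col1a1, the main collagen of fibroblasts, was at background on all clone arrays and at least 390-fold lower (-9.33 ± 0.18, adjusted p = 0.00045), and Fn1, encoding fibronectin, was 56.8-fold lower. Hmgb2, a chromatin protein of dividing cells, was the higher gene (26.6-fold).

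In NS against MEF, the same 4 lists had 7 higher and 0 lower of 11, 8 and 2 of 17, 5 and 1 of 7, and 2 and 6 of 9, where 16.4% and 17.3% of all genes were called higher and lower (treat). In ES against MEF they had 3 and 3, 2 and 6, 3 and 2, and 2 and 5, where 21.9% and 22.8% of all genes were called. Between the clones as a group and NS, 0 genes of any list were called (eBayes), where 0.0191% and 0.0383% of all genes were called higher and lower, while 2, 1, 0 and 0 had an unadjusted p under 0.05. In that fit Apoe (log2 difference 3.13 ± 1.25, SE) and Sparcl1 (-2.98 ± 0.69) did not pass, so its 0 calls do not show likeness. Single clones did differ from NS, mostly in the astroglial list. There, 2 genes were higher and 2 lower of 17 in iNS2 (0.727% and 1.52% of all genes), 3 and 1 in iNS3 (0.928% and 1.29%), and 4 and 1 in iNS5 (1.62% and 1.58%, treat). Apoe, the apolipoprotein of astrocytes, was higher than in NS in all 3 clones, by 4.25-fold in iNS2, 5.2-fold in iNS3 and 30.1-fold in iNS5 (log2 difference 4.91 ± 0.10, SE, treat adjusted p = 5.8e-16). Sparcl1, a matrix protein secreted by astrocytes, was lower in all 3, by at least 7.66-fold in iNS2, 4.06-fold in iNS3 and at least 8.08-fold in iNS5. The glutamate transporter gene Slc1a2, at background in NS, was at least 2.17-fold higher in iNS3 and at least 5.65-fold higher in iNS5, and the growth factor receptor gene Fgfr3 was 3.13-fold higher in iNS2 and 6.91-fold higher in iNS5. Mmd2 was 5.25-fold lower in iNS2 and 5.83-fold higher in iNS5, and Aldoc was 2.7-fold higher in iNS3. In the other lists, Hes5 was 4.15-fold higher and Hes1 2.51-fold lower in iNS2 than in NS, and no other gene was called. These calls compare repeat arrays of 1 clone with repeat arrays of NS. Several listed genes are also marker genes of fibroblasts, neural stem cells or astrocytes, and all lists were chosen with earlier results of these data known.

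**Figure D4:**
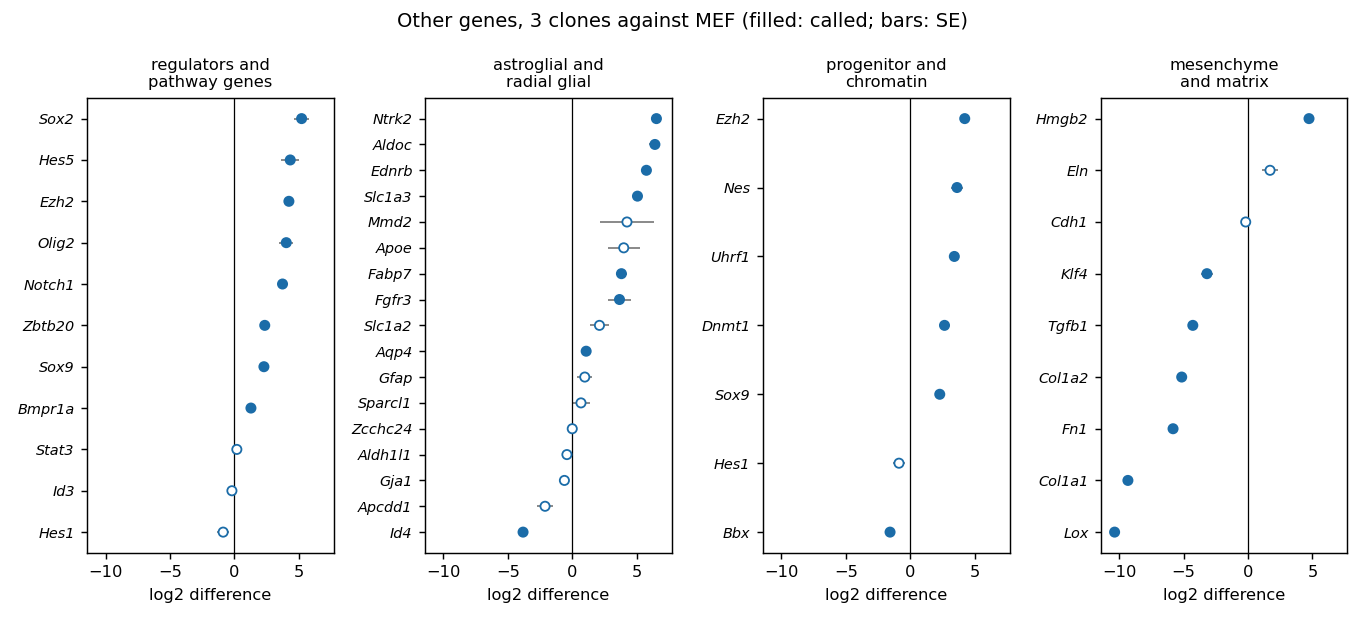
Log2 difference of the 3 clones minus MEF (horizontal axis, bars for SE) for the tested genes of the 4 lists (rows), with filled points for genes called by limma eBayes. Most regulators, 5 of 7 progenitor genes and glial genes such as Ntrk2 and Aldoc lie to the right of 0. The matrix genes Col1a1, Col1a2, Fn1 and Lox lie to the left, while Eln lies to the right and is not called.

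By the pattern of their means over the 6 lines, each centred on its own mean, the 5 of 10449 genes closest to Nfia were Jakmip2, Arl14epl, Tmem35a, Rprm and Vav3, with root mean square differences of 0.18 to 0.29 log2 units, beside a range of 5.36 for Nfia itself. For Nfib they were Zeb1, Pogk, Mid2, Nsmf and Fjx1 (0.11 to 0.22, beside a range of 4.52). For Nfic they were AI413582, Surf4, Trim3, Dcaf6 and Mmp24 (0.05 to 0.10, beside a range of 2.15). For Nfix they were Cdk14, Kif1a, Itpr2, Cops8 and Zfp608 (0.13 to 0.30, beside a range of 5.43). Zeb1, a zinc finger repressor known for keeping epithelial genes off, had means of 12.61 in iNS2, 12.50 in iNS3, 12.58 in iNS5 and 12.60 in NS, against 8.29 in ES and 10.90 in MEF, the closest match found for Nfib. Likeness over 6 lines is a description of these means.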

How the data were processed

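RNA from 6 lines was measured on 21 Illumina MouseWG-6 V2 arrays on 4 slides. Slide 1 held MEF replicates 1 to 3, slide 2 iNS2 and iNS3 replicates 1 to 3, slide 3 ES and iNS5 replicates 2 to 4, and slide 4 NS, MEF replicate 4, iNS3 replicate 4 and iNS5 replicate 1. The deposited scanner values are each probe's mean bead intensity, with background included. Per the file headers, the table also gives a detection p-value, the number of beads and the bead standard error. A scaled table of intensity was deposited too, in which each column was a straight line of the scanner intensity (largest residual 0.1148), with a mean of 379.18 and medians of 6.7 to 8.3. Its background settings and any further scaling are unknown, and no centring across arrays was found. GenomeStudio is named in the submitters' processing notes, with no version. The median scanner intensity per array was 127 to 168.5, and 14407 to 16021 probes had a detection p under 0.01.

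For testing, neqc of limma 3.58.1 (R 4.3.3) corrected the background of the deposited intensities, with controls inferred from detection p-values, added 16, quantile normalised the arrays and took log2. The precision is limited by how many arrays and clones there are. Probes with 1 symbol and a detection p under 0.01 on every array of at least 1 line were tested (15972 probes, 10449 genes). GEO's platform annotation, which can be old, gave 1 symbol for 34885 probes, several for 18 and none for 10378. Of the probes with 1 symbol, 34807 were matched by gene identifier to the mouse RefSeq gene table, and 0 symbols differed. Lines were compared in 1 fit of all arrays (15 residual degrees of freedom) with treat against a 2-fold change. The clones as a group used 1 mean per line and eBayes against no change (2 residual degrees of freedom), with the other line assumed to vary like the clones. Calls had a Benjamini-Hochberg adjusted p under 0.05 over all tested probes, and all tests were two-sided. The fits were tested on simulated data. Where some or all arrays of the dimmer side were not well above background, each was set at no less than the dimmest detected probe and the fold is given as at least that ratio.

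All NFI probes are reported. Other genes come from 4 lists or from the 5 genes closest to each NFI gene by root mean square difference of centred line means. The members and lists were chosen with earlier results of these data known. Promoter sequences and loci are from RefSeq, GRCm38.p6. Figures were drawn with matplotlib 3.10.9 (Python 3.11.15). The normalisation, the filter, the test, the offset, slide blocks, single slides and leaving out arrays or clones were tried as alternatives.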

Additional observations from a re-analysis of the deposited data

Results flagged for a closer look

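Chance alone sets an array apart by the gap test used here in about 1 in 20 groups, and only lines with 4 arrays (iNS3, iNS5 and MEF) could be tested. The gap test was run on each of the 18 tested probes in each of these lines. Only the Nfia arrays named here were set apart, and as many could be set apart by chance alone. For Nfia, iNS3 replicate 4 read 10.237, while the other iNS3 arrays read 9.782 to 9.792. This array lay on slide 4 and the others on slide 2. Without it, iNS3 differed from MEF by 4.06 log2 units, against 4.18 with it, and the call was kept. For Nfia, MEF replicate 1 read 5.394, below the other MEF arrays at 5.792 to 5.866, and was the MEF array not well above background. For the Nfib probe ILMN_2573881, iNS3 was 1.345 log2 units higher than iNS5, the only tested NFI probe that differed between clones by more than 2-fold at the threshold. On slide 4, this probe read 8.194 on iNS3 replicate 4 and 6.888 on iNS5 replicate 1. The part of slide in the Nfia values, and of transcript choice in the Nfib value, was not tested.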

How the results depend on the processing

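Of 301 counts of called NFI probes under an alternative, 258 stayed within 1.5 times the reported count, and 1150 of 1204 log2 differences of the brightest probes kept their direction and side of the threshold. The counts include comparisons with a reported count of 0 and runs that only leave out 1 array. These shares are therefore not a measure of robustness. With 1 probe a gene (4 tested) the count was 3 in iNS2, iNS3, iNS5, NS and ES against MEF, in iNS2, iNS3, iNS5 and NS against ES and in the clones against MEF and against ES, and 0 in iNS3 against iNS5, as fewer probes were tested. With quantile normalisation and no background correction it was 5 in iNS2, 3 in NS and 7 in ES against MEF, 8 in iNS2, 7 in iNS3 and 6 in iNS5 against ES, and 0 in iNS3 against iNS5. Tested against no change, the limit of 2-fold being dropped, it was 15 in iNS3, 15 in iNS5 and 17 in NS against MEF, 17 in iNS5 against ES, 4 in iNS2, 9 in iNS3 and 11 in iNS5 against NS, 5 in iNS2 against iNS3, 7 in iNS2 against iNS5 and 8 in iNS3 against iNS5. With slide as a fixed block it was 5 in iNS2, 3 in iNS5 and 7 in NS against MEF and 0 in iNS3 against iNS5. Within 1 slide it was 2 in iNS5 and 3 in the clones against MEF and 0 in iNS3 against iNS5. It was also 0 there with median scaling or an offset of 50. Against MEF, iNS5 had 8 with median scaling and 9 in the authors' scaled table. Leaving out 1 clone at a time gave 4 to 14 for the clones against MEF, and leaving out 1 array gave 0 to 1 for iNS3 against iNS5. Other than by fewer probes, fewer arrays or the dropped limit, the cause of these shifts was not tested. The shares of all probes called under the alternatives are not given here, so the shifts are not results about the NFI probes alone.

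Differences near 0 that did not pass, and did not pass with the sign turned, turned sign as follows. For Nfia, iNS2 against iNS3 was 0.027 with slide as a block, within 1 slide and at most without an array (-0.129 to 0.027), and the clones against NS were -0.080 to 0.183 without a clone (-0.037 without iNS2). For Nfib, slide as a block gave 0.263 for iNS2 against iNS5, 0.077 for iNS2 against NS and 0.118 for iNS3 against iNS5, also within 1 slide. Median scaling gave 0.016 for iNS5 against NS, and iNS2 against iNS3 was -0.001 to 0.145 without an array. For Nfic, median scaling gave -0.157 for iNS3 against iNS5 and 0.034 for iNS5 against NS. For Nfix, the clones against MEF were -0.053 in the authors' table and -0.055 to 0.055 without a clone. Median scaling gave -0.099 for iNS2 against iNS5, -0.022 for iNS3 against iNS5, 0.051 for iNS2 against MEF and 0.150 for iNS5 against MEF. Slide as a block gave -0.003 for iNS2 against iNS5, 0.226 for iNS2, 0.229 for iNS5 and 0.013 for NS against MEF, the last 2 also within 1 slide. Without an array, iNS2 differed from MEF by -0.111 to 0.056 (0.030 without MEF replicate 3) and from iNS5 by -0.003 to 0.138.

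Ranked by Pearson correlation, 1 of the 5 genes closest to each NFI gene was the same (Vav3, Zeb1, AI413582 and Cdk14). No paired analysis was possible because replicate numbers only name arrays in order. Dim probes near background give only bounds of folds. Within slide 4, 1 array each stands for MEF, iNS3 and iNS5. Clone iNS2 shared no slide with MEF, NS or ES. The ES line shared a slide with iNS5 alone, so its comparisons with MEF, NS, iNS2 and iNS3 have no check within 1 slide.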
